A study of Mus musculus with 2 samples.

Results

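Open chromatin at the 3′ ends of protein-coding genes was described in whole B6NCrl mouse embryos of 10.5 days, from DNase-seq peaks of 2 biological replicates. Each replicate pooled male and female embryos, carried no genetic change or treatment, and was a separate biosample under 1 shared donor record. The replicates formed a single group, and conditions could not be contrasted, and a whole embryo mixes many cell types whose shares are not known. DNase I cuts DNA where nucleosomes are displaced, and a peak is a 150 bp interval with a local excess of cuts, scored by the authors on a scale that reached 148 and 149 on chromosomes 1 to 19 (here called strength). The definition of this score is not given in the sources used here. A site belonged to the set when a replicate 1 peak overlapped a replicate 2 peak by 1 bp or more, lay over 1 kb from every transcription start site (TSS) of the GENCODE M21 annotation, and had its midpoint within 500 bp of the 3′ end of a protein-coding gene and outside coding sequence. This gave 1181 sites of 151215 peaks found in both replicates. Some overlapped one another, and merging left 1158 separate regions. The nearest 3′ ends belonged to 1063 genes.

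The 3′ end of a gene is where its transcript is cut and given a poly(A) tail, at a signal such as AATAAA recognised by the cleavage and polyadenylation factor CPSF. The bases before the cut form the 3′ untranslated region (3′ UTR), and RNA polymerase II usually runs on past it before it lets go of the DNA. Open sites near gene ends can be enhancers, unannotated promoters, other small genes or sites of CTCF, a zinc-finger protein that binds insulators and the anchors of chromatin loops. Poly(A) signals and the DNA around them are rich in A and T. Which of these a peak represents cannot be read from DNase-seq alone.

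The following 4 strong sites were picked as examples of different sequence features and not as typical of the set. Each is printed on the strand of its gene, from a stretch with no exon base in GENCODE M21. The strongest site in the set lay 308 bp beyond the end of Sec14l2, which encodes a lipid-binding protein, at chr11:4096656-4096805 of mm10 (minus strand). Capitals mark its 3 GC boxes (GGGCGG on either strand), the motif of SP and KLF factors.
Sec14l2: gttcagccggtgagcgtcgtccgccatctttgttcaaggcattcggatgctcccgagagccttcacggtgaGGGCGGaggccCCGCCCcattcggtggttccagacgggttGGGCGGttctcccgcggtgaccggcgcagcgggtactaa
The site 276 bp beyond the end of Hes7, the oscillating repressor of the segmentation clock, lay at chr11:69124256-69124405 (plus strand) and ran into a leucine tRNA gene that RefSeq annotates at chr11:69124241-69124322, shown in capitals.
Hes7: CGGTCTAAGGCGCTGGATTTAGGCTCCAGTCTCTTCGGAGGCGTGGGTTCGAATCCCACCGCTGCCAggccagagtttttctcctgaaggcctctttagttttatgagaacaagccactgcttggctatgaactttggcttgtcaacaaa
The site 295 bp beyond the end of Acvrl1, an endothelial receptor of the TGF-β family, lay at chr15:101145556-101145705 (plus strand) and was the strongest with a match to the core of the CTCF motif, in capitals and on the opposite strand.
Acvrl1: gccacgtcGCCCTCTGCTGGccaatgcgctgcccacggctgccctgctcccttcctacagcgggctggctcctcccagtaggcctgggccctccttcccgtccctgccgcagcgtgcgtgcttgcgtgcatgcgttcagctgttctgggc
The site 372 bp beyond the end of the linker histone gene Hist1h1b, at chr13:21779436-21779585 (minus strand), was the strongest of the tenth with the lowest GC content (at most 43.3%), and capitals mark AATAAA on the opposite strand.
Hist1h1b: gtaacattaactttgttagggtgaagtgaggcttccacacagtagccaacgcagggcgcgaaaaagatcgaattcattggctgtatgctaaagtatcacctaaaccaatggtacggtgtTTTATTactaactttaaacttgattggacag

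Of 20746 distinct 3′ ends, 19379 had at least 1 position in reach where a site could lie, and 1117 of these had a site. This was 5.76% (95% Wilson interval 5.44 to 6.1, which treats ends as independent and covers counting error only). A single site was found at 1008 ends, 2 at 97 ends, 3 at 10 ends and 4 at 2 ends. Arhgap35 and Rpl7l1, a ribosomal protein-like gene, had 4 each. At both genes some of the 4 overlapped one another, so they were not 4 separate regions. The 4 Arhgap35 sites had strengths between 25 and 39 in replicate 1, so many sites at 1 end did not mean strong sites. The 2 Hes7 sites scored 119 and 62 in replicate 1 and 129 and 86 in replicate 2, and lay on opposite sides of the gene's end.

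The replicates gave different numbers of sites when each was taken alone. Replicate 1 alone placed a peak at 7.16% of ends and replicate 2 alone at 8.6%. Among replicate 1 peaks that met the position rule, 1181 of 1535 (76.9%) overlapped a replicate 2 peak, against 72.3% of its other distal peaks. Among replicate 2 peaks that met it, 1193 of 2009 (59.4%) overlapped a replicate 1 peak, against 67.1% of its other distal peaks. Peaks seen in replicate 2 and not in replicate 1 thus made up a larger share at 3′ ends than elsewhere, and the opposite held for replicate 1.

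The same rule was applied to windows of equal size at the middle of the gene. Over gene records of 4 kb or more, 961 of 16882 3′-end windows held a site (5.69%, 5.35 to 6.05) and 688 of 15681 mid-gene windows did (4.39%, 4.08 to 4.72). Counted per Mb of sequence that could hold a midpoint, the density was 67.5 sites at 3′ ends and 55.3 at mid-gene, a ratio of 1.22. The ratio was 1.19 in replicate 1 and 1.30 in replicate 2 taken alone. Of 14923 genes with both windows, 64 had a site in both, 763 at the 3′ end only and 608 at mid-gene only.

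Density varied within the 3′-end windows. In the last 250 bp of the gene the density was 52.8 sites per Mb, the lowest within 2 kb of the end on either side and below the mid-gene value. It was 72 in the first 250 bp beyond the end and 82.2 in the next 250 bp. Inside the gene, the density between 1000 and 500 bp before the end was 74.2 and 76.3 per Mb in 250 bp steps, and further in, from 5 to 2 kb before the end, it ran from 49.4 to 67.8. Beyond the end it ran between 65.6 and 83.1 per Mb from 500 bp out to 5 kb. The value of 82.2 between 250 and 500 bp was above both neighbouring steps and lay within that range. In the same step replicate 1 alone had 107 peaks per Mb and replicate 2 alone 131, the highest of its 250 bp steps. Both replicates taken alone had the same dip, at 71.8 and 79.2 peaks per Mb in the last 250 bp and 95 and 119 in the first 250 bp beyond.

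**Figure D1:**
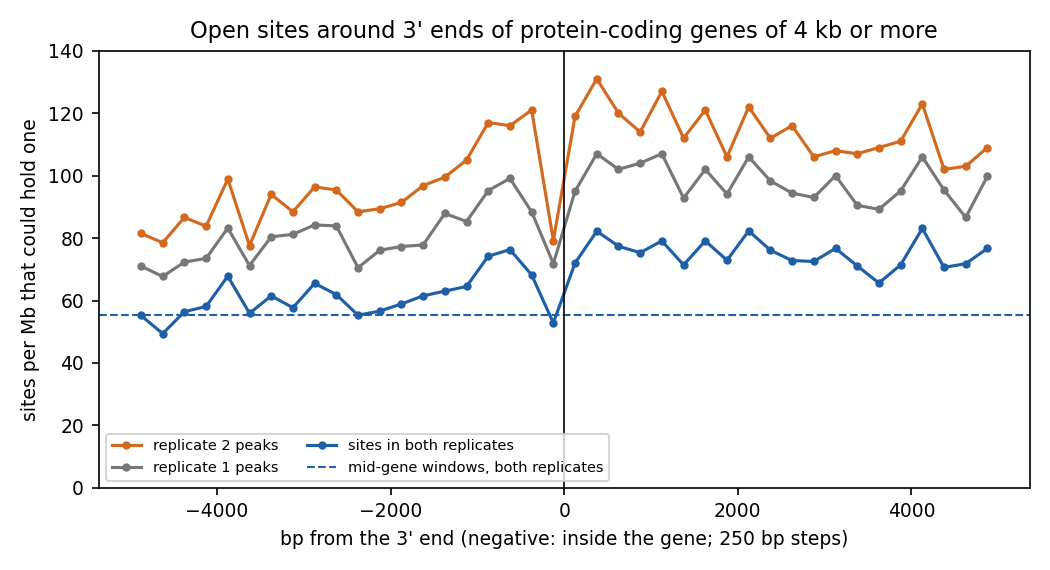
Density of open sites (sites per Mb that could hold a midpoint, y axis) against distance from the 3′ end in 250 bp steps (x axis, negative inside the gene), for genes of 4 kb or more; lines show sites in both replicates and the peaks of each replicate, and the dashed line the mid-gene windows. All 3 lines dip in the last 250 bp of the gene, to 52.8 per Mb for sites in both replicates, and in the first 250 bp beyond the end they stand at 72, 95 and 119.

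Base composition differed between these steps. Positions in the last 250 bp had a mean GC content of 40.8%, against 43.4% in the first 250 bp beyond the end and 44.3% between 750 and 500 bp before it. Density rose steeply with GC content everywhere. At positions of 50 to 60% GC, the last 250 bp held 137 sites per Mb, the preceding 250 bp 136, and the first 250 bp beyond the end 154. At 60% GC or more the last 250 bp held 524 per Mb, against 322 and 431 in the bins to each side, from 44, 43 and 31 sites. In those classes the last 250 bp thus held as many sites per Mb as the 250 bp before them or more. At 40 to 50% GC they held fewer than both neighbours, 43.1 per Mb against 51.7 and 59.5. Below 40% GC, which covered 1.8 of the 3.79 Mb in the last 250 bp, the values were 5.56 per Mb against 5.68 and 9.73.

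The ratio to mid-gene windows was above 1 in each GC class. It was lowest, 1.05, at 40 to 45% GC, from 94 and 92 sites, and 1.17 to 1.24 between 45 and 60% GC. It was 1.36 at 60% GC or more, from 153 and 75 sites, and 1.58 below 40% GC, from 39 and 20 sites. By distance to the nearest TSS it was 1.49 between 1 and 2 kb, 1.21 and 1.26 in the classes between 2 and 20 kb, and 0.98 beyond 20 kb, so far from any start the 3′ ends held no more sites than mid-gene windows. By gene length the ratio was 1.57 for genes of 10 to 30 kb, 1.15 for those of 4 to 10 kb, 1.10 for 30 to 100 kb and 1.03 above 100 kb. Compared within introns alone, the density was 68.4 per Mb in 3′-end windows and 54.9 in mid-gene windows. Within 3′ UTRs it went the other way, at 60.4 per Mb in 3′-end windows from 407 sites and 67.9 in mid-gene windows from 29 sites, a ratio of 0.89.

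**Figure D2:**
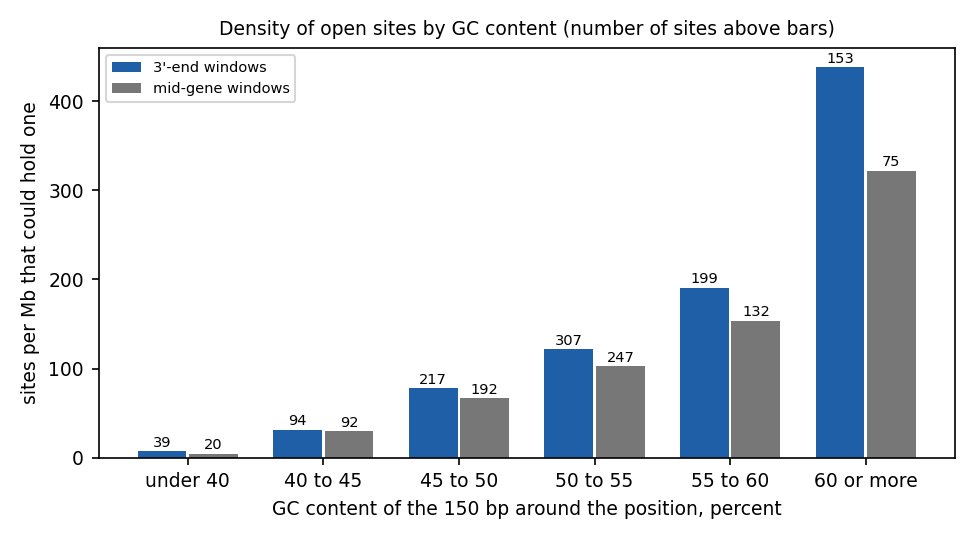
Density of open sites (sites per Mb that could hold a midpoint, y axis) by GC content of the surrounding 150 bp (x axis) in 3′-end windows and mid-gene windows of genes of 4 kb or more; numbers above the bars count sites. Density rises with GC content in both, from 7.38 to 438 per Mb at 3′ ends, and the 3′-end bar is the higher of each pair.

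Of the 1181 sites, 687 (58.2%) had their midpoint downstream of the gene's end and 494 lay upstream of or at it. Per Mb that could hold a site this was 79 downstream and 64.8 upstream, and 94 peaks covered the end itself. By annotation 562 midpoints (47.6%) were intergenic, 471 (39.9%) in a 3′ UTR, 118 (9.99%) in an intron of the same or another transcript, and 30 in another exon. Per Mb of 3′-end window the density was 74.2 in intergenic sequence and 60.4 in 3′ UTRs. Another protein-coding gene ended within reach at 57 sites. Convergent ends, where a gene on the other strand ends within 1 kb, had a site in 147 of 1802 cases (8.16%, 6.98 to 9.51) and other ends in 970 of 17577 (5.52%, 5.19 to 5.87). The windows of convergent ends overlap, so 1 site can count for both genes.

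The sites were somewhat stronger than other distal sites. Their median strength was 51 in replicate 1 and 65 in replicate 2, against 46 and 59 for mid-gene sites and 45 and 55 for the 108140 other distal sites. The range was 11 to 134 in replicate 1 and 19 to 139 in replicate 2. The strength above which the top 25% of other distal sites lay was passed by 33.8% of 3′-end sites in replicate 1 and 38% in replicate 2, and by 26.3% and 27.5% of mid-gene sites. Both replicates reached 100 or more at 45 sites (3.81%), against 2.11% of mid-gene and 2.34% of other distal sites. The 2 replicates ranked the sites alike, with a Spearman correlation of 0.893 across the 1181 sites, which share the 2 libraries and are not replicates. Replicate 2 gave the higher score at 89.8% of them, as it did at 84.7% of other distal sites. No score passed 149 on these chromosomes, and whether the scale has an upper bound is not known.

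**Figure D3:**
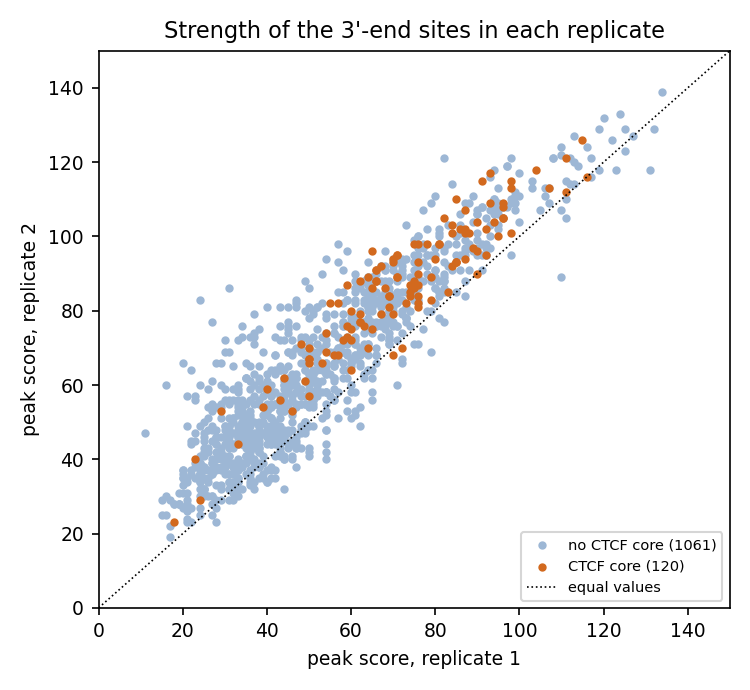
Peak score of each 3′-end site in replicate 1 (x axis) and replicate 2 (y axis), with the 120 sites that hold a CTCF core in orange and the dotted line at equal values. Most points lie above the line, the CTCF sites gather at 60 or more, and the points farthest above the line have low scores in replicate 1.

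The 10 sites of highest mean strength came from 10 different genes, whose functions were not compared. After Sec14l2 (134 in replicate 1 and 139 in replicate 2) came Ctdsp1, a phosphatase of the RNA polymerase II tail, with 132 and 129 at chr1:74397396-74397545. Lrrc24, a leucine-rich repeat gene, scored 124 and 133 at a site inside its 3′ UTR, 95 bp before the end. Hist1h1b scored 125 and 129, and Dtx1, a Notch pathway ubiquitin ligase, 120 and 132 in its 3′ UTR, 149 bp before the end. In these sites the replicates differed by at most 12 units. Fam120a had 127 in both replicates, Dnajb12, a chaperone of the endoplasmic reticulum, 131 and 118, and Hes7 119 and 129. Fhl3, a LIM-domain gene of muscle, scored 125 and 123, and Sh3d21 122 and 126. Of the 10, 8 lay in intergenic sequence beyond the gene and 2 in a 3′ UTR.

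Some of the strongest sites lay near starts that GENCODE M21 does not list. The Hes7 site was the only one of the 1181 that overlapped any of the 386 tRNA genes of RefSeq on these chromosomes (0.0847%), against 235 of the other distal sites (0.217%). RefSeq placed a transcript start within 1 kb of 46 sites (3.9%), close to the 4.36% of mid-gene and 4.05% of other distal sites. The strongest of these was in an intron of 3300002I08Rik, with 114 and 119, and the RefSeq start lay inside the peak. The site 368 bp beyond Stac3, a gene of muscle contraction, scored 104 and 118 and lay 9 bp from a RefSeq start. With RefSeq transcript and tRNA starts added to the list of starts, 1130 sites remained and the density ratio to mid-gene windows was 1.21.

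Sequence composition set a small class apart. CpG-rich sequence, with at least 50% GC and an observed to expected CpG ratio of at least 0.6 over 500 bp, the composition of CpG islands, surrounded 58 sites (4.91%), against 3.43% of mid-gene and 1.65% of other distal sites. These 58 had a median strength of 70.5 in replicate 1 and 86 in replicate 2, and 10 of them reached 100 in both. Sec14l2, Ctdsp1 and Fam120a were the strongest of them. In each of the 3 sets the CpG-rich share was highest among sites of mean strength 100 or more. There it was 18.8% at 3′ ends, 19.4% at mid-gene (6 of 31 sites) and 12.7% at other distal sites, so this was not particular to 3′ ends. The median GC content of all the sites was 52%, against 51.3% at mid-gene and 49.3% at other distal sites. Soft-masked repeat sequence made up at least 50% of the bases in 5.67% of the sites, 7.66% of mid-gene and 4.57% of other distal sites.

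A match to the CTCF core was present in 120 of the 1181 sites (10.2%, 8.56 to 12). Mid-gene sites held it in 6.34% (4.82 to 8.31) and other distal sites of the same width in 5.28% (5.15 to 5.42). The share at 3′ ends was the highest of the 3 sets in every GC class, from 6.78% at 60% GC or more to 11.7% below 45% GC. Over all peaks of replicate 1 alone, shared or not, it was 7.88% at 3′ ends, 4.72% at mid-gene and 3.92% elsewhere, and in replicate 2 alone 6.22%, 4.55% and 3.72%. The match lay on the gene's strand in 69 sites, on the opposite strand in 50, and 1 site had more than 1 match. Intergenic 3′-end sites held it in 11% of cases and 3′ UTR sites in 8.49%.

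The matches in the strongest such sites that hold 1 match are shown in 30 bases, read on the strand of the match with the core in capitals, since their shared letters are what the count rests on.
Acvrl1: gcgcattggCCAGCAGAGGGCgacgtggct
Ror2: catcctccgCCAGCAGGGGGCtcacggagc
Bcan: aggctgtgaCCAGTAGAGGGCgctgcagat
Ripor1: gagctgtcgCCACCAGGGGGCagcagaact
Stac3: ccaacttggCCACCAGGGGGCgatgcaaga
Rdh5: gagagatggCCACCAGAGGGCgcttttctc
Acvrl1 scored 115 and 126, and Ror2, a receptor of Wnt5a, 116 and 116 at a site in its 3′ UTR (match at chr13:53109743-53109772, plus strand). Bcan, which encodes the brain proteoglycan brevican, scored 111 and 121 (match at chr3:87987135-87987164, minus strand). Ripor1 scored 111 and 112, and Rdh5, a retinol dehydrogenase, 107 and 113. The 5 of these sites outside Ror2 lay between 202 and 372 bp beyond the gene's end.

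Sites with a CTCF core were strong. Their median strength was 71.5 in replicate 1 and 88 in replicate 2, against 48 and 62 for the 1061 sites without it, and 67 and 82 for other distal sites with it. The share with a core rose from 1.76% below a mean strength of 40 to 26.4% between 80 and 100, and was 18.8% at 100 or more. In mid-gene sites between 80 and 100 it was 19.3%, and in other distal sites 15.6%. Below 40 and between 40 and 60 the shares at 3′ ends were 1.76% and 3.23%, and those of mid-gene sites 0.995% and 3.76%. Between 60 and 80 the shares were 14.1% at 3′ ends, 10.2% at mid-gene and 8.75% at other distal sites. At 100 or more, mid-gene sites held a core in 2 of 31 cases (6.45%) and other distal sites in 9.62%. The intervals of 3′-end and mid-gene sites overlapped in each class of strength, which does not show that their shares were equal.

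**Figure D4:**
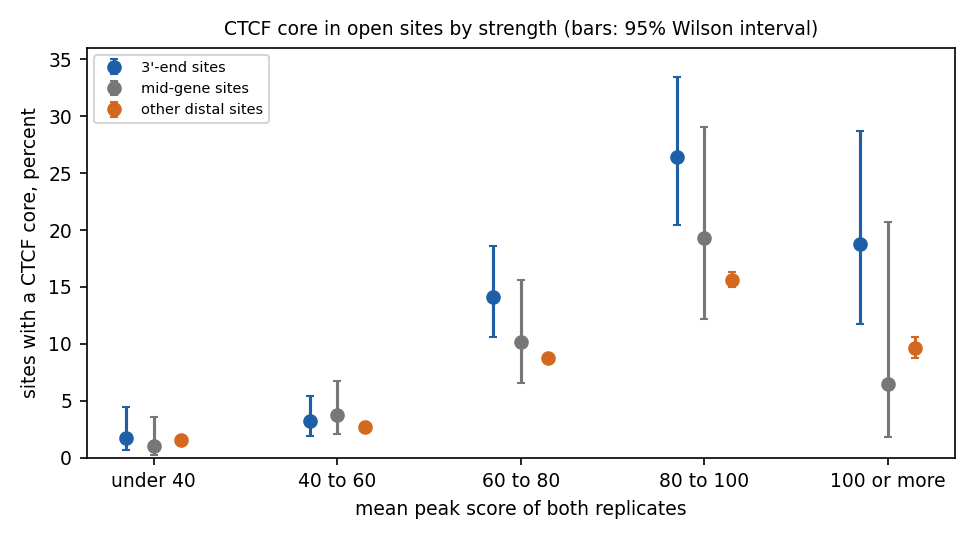
Percent of sites with a match to the CTCF core (y axis) by mean peak score of both replicates (x axis) for 3′-end, mid-gene and other distal sites, with 95% Wilson intervals. The intervals of 3′-end and mid-gene sites overlap in each class, and between 80 and 100 the points stand at 26.4%, 19.3% and 15.6%.

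Other motifs were searched in the same way, on both strands of the 150 bp. The YY1 motif AAGATGGC was in 5 sites (0.423%, 0.181 to 0.987), against 1.32% of mid-gene sites (0.719 to 2.41) and 0.923% of other distal sites. The GC box was in 9.74% of the sites (8.17 to 11.6), 7.93% of mid-gene and 6.08% of other distal sites, but within GC classes the 3′-end and other distal sites were close, at 32.8% and 31.1% above 60% GC, 13% and 11.9% at 55 to 60%, and 5.22% and 5.6% at 50 to 55%. The homeodomain motif TAATTA was in 2.62% (1.86 to 3.7), against 2.51% at mid-gene and 4.34% (4.22 to 4.46) elsewhere. The nuclear receptor motif AGGTCA was in 13.5% against 12.8% and 16.5%, and the E-box CATCTG, which can overlap the CTCF core, in 16.8% against 18.6% and 19.9%. For these 3 motifs the 3′-end sites stood close to mid-gene sites and below other distal sites. The E-box CAGCTG (16%), the SOX motif ACAATG (8.21%), the GATA motif AGATAA (5.17%), the AP-1 motif TGANTCA (4.74%), the forkhead motif TGTTTAC (2.46%) and the TEAD motif GGAATG (11%) had intervals that overlapped those of mid-gene sites. The poly(A) signal AATAAA was in 11.5% of the sites and 10.8% of other distal sites. It was in 16.6% of the 3′ UTR sites and 9.25% of the intergenic ones.

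Genes with a site at the 3′ end mostly had an open promoter, defined as a peak within 1 kb of one of the gene's own TSSs in both replicates. This held for 958 of 1117 ends (85.8%), against 71% of all ends that could hold a site and 83.9% of genes with a mid-gene site. Ends of genes without an open promoter had a site in 2.83% of cases (2.42 to 3.29). Their mid-gene share, over gene records of 4 kb or more only, was close at 2.97%. When open promoters were split into 3 classes of equal number by strength, the 3′-end share was 8.01% (7.26 to 8.83) in the weakest, 6.44% in the middle and 6.43% in the strongest class. The mid-gene shares, over gene records of 4 kb or more, were 5.62%, 5.35% and 3.99%. The strongest sites at genes without an open promoter were those of Stac3, of Slc16a5, a monocarboxylate transporter relative with 106 and 113 in its 3′ UTR, and of Napsa, an aspartic protease gene with 100 and 117. At Napsa the nearest RefSeq start lay inside the peak.

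Several gene families with roles in development had sites at a larger share of ends than the 5.76% of all ends. Mid-gene windows came only from gene records of 4 kb or more, so a family's 2 shares cover unlike gene sets. Of homeobox genes outside the Hox clusters, 31 of 143 had one (21.7%, 15.7 to 29.1), and their mid-gene windows had one in 14% of 100 cases. Sox genes had one at 5 of 18 ends (27.8%, 12.5 to 50.9) and in 3 of 12 mid-gene windows (25%), so their share was high in both places. T-box genes had one at 4 of 16 ends (25%, 10.2 to 49.5) and in 1 of 15 mid-gene windows (6.67%). Receptors of signalling pathways had one at 12 of 78 ends (15.4%) and in 11.3% of mid-gene windows. Basic helix-loop-helix (bHLH) genes had one at 9 of 62 ends (14.5%, 7.83 to 25.3) and in 2 of 25 mid-gene windows (8%). Hox genes had sites at 2 of 31 ends, those of Hoxb8 (105 and 107) and Hoxd3. At Hoxb8 a RefSeq start lay inside the peak. Forkhead genes had sites at 4 of 40 ends (10%) and in 6 of 22 mid-gene windows (27.3%). The 3′-end intervals of Hox genes (1.79 to 20.7) and forkhead genes (3.96 to 23.1) include the 5.76% of all ends. Signalling ligands had them at 9 of 115 ends (7.83%), chromatin modifiers at 9 of 103 (8.74%) and solute carriers at 19 of 302 (6.29%), with intervals that include the value of all ends.

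Other families stood low or rested on few genes. Zfp genes, most of them zinc-finger genes, had sites at 10 of 367 ends (2.72%, 1.49 to 4.94) and olfactory and vomeronasal receptor genes at 6 of 1375 (0.436%, 0.2 to 0.949). Only 2.11% of those receptor genes had an open promoter, against 87.5% of the Zfp genes. Ribosomal protein genes had sites at 7 of 59 ends (11.9%, 5.87 to 22.5), and 1 of the 7 is the like-named Rpl7l1. Keratin genes had them at 5 of 47 (10.6%), although 23.4% of keratin genes had an open promoter. Collagen genes had them at 2 of 42, mitochondrial ribosomal protein genes at 3 of 69 and proteasome genes at 1 of 44.

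The gap between the replicates was widest at homeobox and forkhead genes. Replicate 1 alone placed a peak at 21.7% of the homeobox ends (31 of 143) and replicate 2 alone at 52.4% (75 of 143). Over all ends the values were 7.16% and 8.6%. Forkhead genes had 15% and 42.5% (6 and 17 of 40 ends), and Sox genes 33.3% and 50% (6 and 9 of 18). T-box genes had 25% and 37.5% (4 and 6 of 16), and bHLH genes 21% and 30.6% (13 and 19 of 62). Hox genes, with 12.9% and 16.1%, signalling receptors, with 15.4% and 17.9%, and chromatin modifiers, with 14.6% and 10.7%, did not have a gap of this size. Families outside development also differed, but by few ends. Integrins had 6.9% and 13.8% (2 and 4 of 29 ends), and kinesins and dyneins 7.27% and 12.7% (4 and 7 of 55). The excess of homeobox ends over all ends was thus present in each replicate, at different sizes. Hotspots are regions of enriched cuts called by the authors, of varying width. In replicate 2, 15 of the 32 homeobox sites lay in a hotspot of 2 kb or more, against 96 of the 1181 sites (8.13%). In replicate 1 none of the 32, and 4 of the 1181, did. Wide replicate 2 hotspots also held 2 of 3 Hox sites, 4 of 11 bHLH, 2 of 5 T-box, 1 of 4 forkhead and 1 of 6 Sox sites. They held 0 of 10 signalling ligand sites. Wide hotspots were thus not confined to homeobox genes. These counts cover only sites found in both replicates, while the gap counts all peaks of each replicate. The part of wide hotspots in the replicate difference was not tested.

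**Figure D5:**
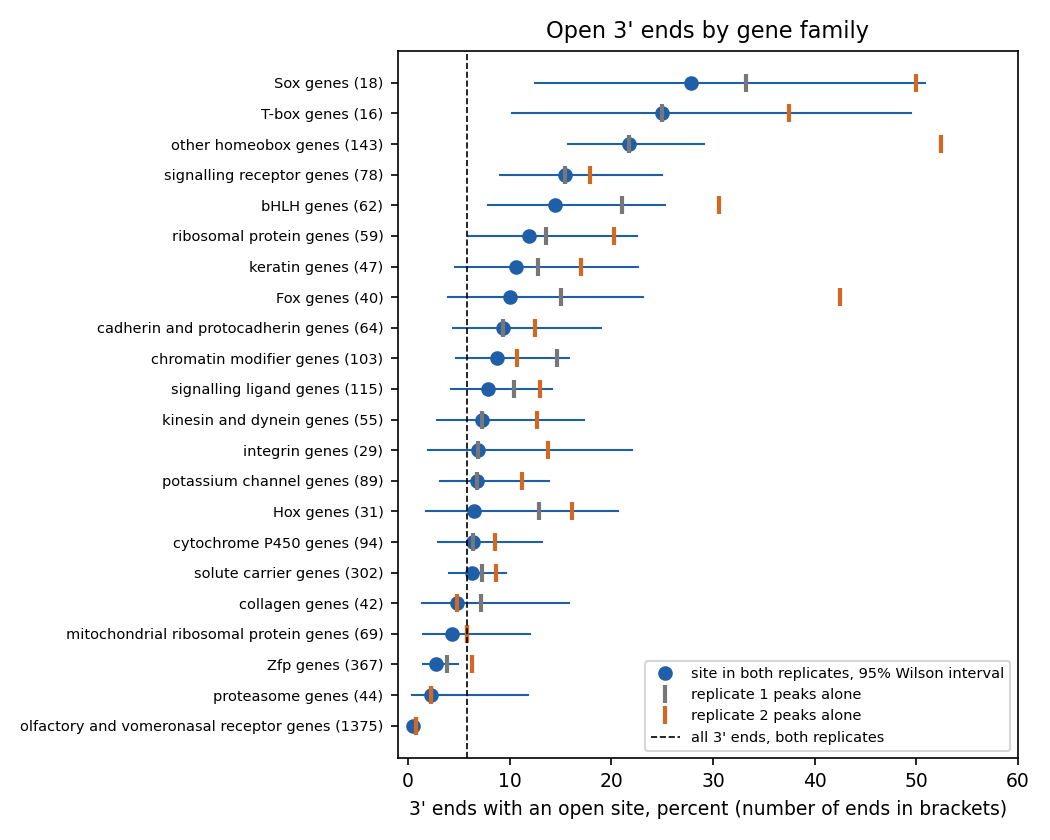
Percent of 3′ ends with an open site (x axis) in each gene family (y axis, number of ends in brackets): dots are sites in both replicates with 95% Wilson intervals, ticks are the peaks of each replicate alone, and the dashed line is the 5.76% of all ends. Homeobox and forkhead genes have the widest gaps between the replicates, 21.7% to 52.4% and 15% to 42.5%.

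Homeobox sites ran from strong in both replicates to weak in replicate 1 alone. Lhx5, of the forebrain and spinal cord, scored 96 and 108 in its 3′ UTR, Pitx3, of the lens and midbrain, 94 and 104, Six3, of the eye field, 83 and 85, and Pou3f2, a neural POU gene, 80 and 89. In these the replicates differed by at most 12 units. The Pitx3 site lay 194 bp beyond the end of that gene, with the end of Elovl3 also in reach. Dlx6, of the branchial arches and limb ridge, scored 16 and 60 at a 3′ UTR site and 23 and 56 at a second site, Evx2 20 and 66, Isl1, a motor neuron and heart gene, 28 and 66, and Nkx2-4 31 and 86. The hotspots around these 4 genes' sites were 56 to 282 bp wide in replicate 1 and 1478 to 7104 bp in replicate 2. Over the 32 homeobox sites, the median was 44.5 in replicate 1 and 67 in replicate 2, and 31 scored higher in replicate 2. The median log2 change from replicate 1 to replicate 2 was 0.55, against 0.29 over all 1181 sites.

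Across the set, the sites that moved most toward replicate 2 were at Bdh2 (24 and 83), at Dlx6 (16 and 60) and at Gm21188 (11 and 47). Bdh2 had 3 sites, and the one at 24 lay 15 bp before the end of the gene between stronger neighbours of 59 and 65 in replicate 1. A replicate 2 peak can be paired with more than 1 site, and the neighbour of 59 also had 83 in replicate 2. The values 24 and 83 may thus not be a change at that site. The sites that moved most toward replicate 1 were at Marcks (44 and 32), at Fgfr4 (54 and 40) and at Ccdc97 (54 and 42). Changes toward replicate 1 were thus smaller. At the limb and heart gene Tbx2, a CpG-rich site 163 bp beyond the end scored 110 and 89, and a second in the 3′ UTR scored 54 and 79, so the order of the 2 replicates turned within 1 gene.

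Among bHLH genes, the muscle determination gene Myod1 scored 54 and 74 at a site 72 bp beyond its end, and Myog, the muscle differentiation gene, 65 and 76 in its 3′ UTR. The proneural gene Neurog1 scored 76 and 83 in its 3′ UTR and the blood lineage gene Lyl1 95 and 100, with a CTCF core. Id1 and Id2, inhibitors of bHLH factors, had sites of 61 and 83 and of 48 and 69 just beyond their ends. Of Sox genes, Sox13 scored 85 and 110 with a CTCF core, Sox4 82 and 96, and Sox9, the cartilage and gonad regulator, 36 and 44 in its 3′ UTR with a second site at 33 and 39. The Sox9 sites were the weakest of the family in replicate 2.

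Among signalling receptors, 5 of 14 sites held a CTCF core, against 120 of 1181 over the set. The count is small, and such a share was not particular to receptors. Cytochrome P450 genes held it in 3 of 9 sites and signalling ligand genes in 0 of 10. The 2 strongest receptor sites were those of Acvrl1 and Ror2. Fgfr1 had a site of 81 and 98 with a CTCF core in its 3′ UTR and another of 47 and 43 beyond the end. Flt4, the lymphatic endothelial VEGF receptor, scored 74 and 84 with a CTCF core, and Plxna2, a semaphorin receptor, 81 and 102 without one. Frizzled genes contributed Fzd2 with 2 sites, of 51 and 80 and of 56 and 65, Fzd8 with 54 and 71, and Fzd10 with 48 and 57. Of ligands, Sema6c had 3 sites, the strongest 77 and 107, and Wnt8b, of the hindbrain and forebrain, had 1 of 74 and 85.

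The sites nearest the rule's limits had these strengths. Just inside 500 bp stood Fhl3, at exactly 500 bp and among the 10 strongest, and Dexi with 70 and 83. Just outside, at 501 bp on either side of the end, stood Wdr93 with 83 and 93 and Sostdc1 with 44 and 57. Just over 1 kb from a TSS were the sites of Arl2bp (39 and 36, at 1001 bp) and Cldn20 (59 and 76, at 1002 bp), and at or just under it Nprl3 (34 and 55, at 1000 bp) and Mc1r (68 and 70, at 999 bp). Of the 1954 shared peaks within 500 bp of a 3′ end, 689 (35.3%) were left out for a nearby TSS and 84 (4.3%) for coding sequence.

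As a check on the tissue, promoters of neural tube, somite and limb bud markers were open for 4 of 4 genes each, of heart for 3 of 4, of endoderm for 3 of 4 and of endothelium for 2 of 4. The 3 markers of primitive red cells on these chromosomes (Hbb-y, Hba-x and Klf1) and the 4 of trophoblast and decidua did not have an open promoter. On chromosomes 1 to 19 the files held 203095 and 223678 peaks. The number of reads behind them is unknown from the files, so intervals cover the counting of windows and sites only.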

How the data were processed

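Per the labels, the authors' peaks and hotspots are on mm10, with 1 file of each per replicate. The sources used here do not give the aligner, the caller or its thresholds. The deposited peak score is a whole number of unstated definition, and was used as given. The deposited −log10 q-value of hotspots was not used to filter. Repeated peaks were dropped. Peaks were joined to GENCODE M21 and to the soft-masked GRCm38.p6 genome of RefSeq, whose chromosomes are those of mm10, with Python 3.11.15, NumPy 2.4.6 and SciPy 1.17.1. TSS distance ran from the peak's edge. A 3′ end is the end of a gene record, and each distinct end counted once. Density used only positions that could hold a midpoint. No test was run over sites. The density code was tested on simulated data. Families were taken by symbol pattern.

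The set, gene lists and motifs were chosen with earlier results of these data known. The genes named were the 10 strongest, the strongest of each class, family and motif, those with most sites, those most shifted between replicates and those at the thresholds. Further genes, chosen after their values were seen, stand among homeobox, bHLH, Sox, receptor and ligand genes. Hotspot width of 2 kb was also chosen then.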

Additional observations from a re-analysis of the deposited data

How the results depend on the processing

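The ratio of 3′-end to mid-gene density stayed above 1 under each of the 14 alternatives run on it, with its lowest value, 1.13, in windows of 250 bp. The number of sites and the share of ends with one were 1808 and 8.23% with the ends of all protein-coding transcripts, 564 and 2.94% with windows of 250 bp, 2380 and 10.3% with windows of 1000 bp. With peaks at or above the median of their replicate they were 729 and 3.72%, the density ratio 1.35, the median strength 65, the CTCF share 15.5% and the open-promoter share 80%. Leaving out a replicate gave 1535 to 2009 sites, 7.16% to 8.6% of ends, ratios of 1.19 to 1.30, median strengths of 44 to 52, CTCF shares of 7.88% to 6.22% and open-promoter shares of 87.3% to 88.2%. The downstream share, 58.1% to 58.3% in single replicates, was 58.4% with TSS distance from the midpoint, 56.2% with a distance over 2 kb, 56.1% with all transcript ends, 59% and 57.1% with windows of 250 and 1000 bp, 60.5% with no peak base in coding sequence, 59.1% with the stronger peaks and 58.4% with RefSeq and tRNA starts added. That last alternative and the merging of overlapping sites were chosen after seeing the data. The causes were not tested. No paired analysis was possible because the 2 replicates form a single group. Depth is unknown, so a missing peak does not show closed chromatin.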
